A study of Mus musculus with 2 samples.

Results

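The interferon-stimulated effector genes are a set of 35 listed mouse genes whose products carry out the antiviral and antimicrobial side of an interferon response. They were read on an Affymetrix array of mouse marrow cells grown with ID8 tumour cells, through every probe set whose only gene symbol in the platform annotation was a listed member. This gave 51 probe sets for 32 of the 35 genes, out of 34945 probe sets named for 1 gene and 45037 on the array. Ifi44 had no probe set under its symbol. Isg15 was carried by 1 probe set and Ifi205 by 2, each with other symbols as well, and these were not read. A shared probe set each of Ifi204 and Trim30a was left out in the same way.

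The series holds 2 arrays, 1 per group, both from C57BL/6 femoral bone marrow grown in medium with 5% FBS. For the ID8-induced myeloid-derived suppressor cells (MDSC), marrow cells shared a 24-well transwell plate for 4 days with ID8 cells, a mouse ovarian tumour line that the labels also write as 1D8, kept in the upper chamber. In the title of that sample the inducer is supernatant instead, and CD11b+Gr1+ is the phenotype given for both samples. The other sample is labelled as control bone marrow cells, with no tumour cells named and no stated time in culture. The labels name no sorting step. With 1 array per group no value has a replicate error, and no test between groups was possible.

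The control signals could not be tied to genes. Down the probe set list they fell in 2 interleaved descending runs, with 0 rises among the 22626 values at or above the last one and 0 among the 22411 below it. In the ID8-induced column, 49.9% of steps from row to row were rises. No fold change was therefore computed, and all values below are MAS5 signals of the ID8-induced array, which do not show that the tumour cells raised or lowered any gene. Signal is on a linear scale in arbitrary units and has no error here.

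Interferons are secreted proteins that cells release on sensing foreign or misplaced nucleic acid. Type I interferons act through the receptor chains IFNAR1 and IFNAR2 and the kinases JAK1 and TYK2, which activate a transcription factor complex that binds interferon-stimulated response elements in promoters. Interferon gamma acts through the receptor chains IFNGR1 and IFNGR2, and many of its target genes carry gamma-activated sites. The genes switched on include sensors of viral RNA and DNA, enzymes that cut or edit RNA, proteins that block translation, replication or release of viruses, and GTPases that attack the vacuoles of intracellular microbes. In myeloid cells many of these genes also have a basal level without added interferon.

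The response element is the regulatory sequence the members are best known to share, so RefSeq promoter windows (GRCm38.p6, 250 bases before to 50 bases after each annotated start) were searched on both strands for its core, spelled as GAAA, any 2 bases and GAAA again. At least 1 window was listed for 25 of the 35 members (32 windows in all), and a gene was counted if any of its windows held a match. The core was found in 14 of these 25 (56%), against 3.99% of all 27025 genes with a window. In 8 of them (32%) a match was followed by CT, here called the extended form, which 0.303% of all genes had. For each of these 8 members 1 such match is shown on the strand on which it reads as spelled, with 6 flanking bases on each side and the core in capitals. The lines show that the bases between the GAAA copies vary, with GT in the lines of Ifit1, Ifit3 and Gbp2 and other pairs in the rest. Ifit1 and Ifit3 each have another core match, not among these lines, with CT between the copies.
Ifit1 at chr19:34640785-34640794: agactgGAAAGTGAAActgaag
Ifit3 at chr19:34583373-34583382: gaagagGAAAGTGAAActtacc
Gbp2 at chr3:142620604-142620613: gacagtGAAAGTGAAActaaaa
Gbp3 at chr3:142559999-142560008: gaaataGAAACTGAAActgtgt
Oas1a at chr5:120907536-120907545: tctcggGAAATGGAAActgaaa
Bst2 at chr8:71537593-71537602: ttccagGAAAATGAAActgaaa
Irgm1 at chr11:48871435-48871444: gaaataGAAACCGAAActgatt
Trim30a at chr7:104465220-104465229: aactgaGAAAAAGAAActaaag

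In Rsad2 and Isg15 the core occurred without the extended form. Isg15 had 3 overlapping matches in a row, and the first of them is shown with that of Rsad2.
Rsad2 at chr12:26456563-26456572: ttttctGAAAATGAAAgttgga
Isg15 at chr4:156200887-156200896: ccgtagGAAAAGGAAAccgaaa

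The windows of 4 members show the element in its setting. They are given over the 250 bases before the RefSeq start, on the strand of the gene, with matches to the core in either direction in capitals. Ifit1 has 2 extended matches, Gbp2 has 1, Rsad2 has the core alone, and Oasl2 has none.
Ifit1, plus strand, chr19:34640639-34640888: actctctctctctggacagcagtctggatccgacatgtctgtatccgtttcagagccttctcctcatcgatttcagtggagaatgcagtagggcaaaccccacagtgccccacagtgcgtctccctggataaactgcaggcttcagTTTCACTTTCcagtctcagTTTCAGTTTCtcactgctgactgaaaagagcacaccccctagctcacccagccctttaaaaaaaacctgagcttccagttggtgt
Gbp2, plus strand, chr3:142620413-142620662: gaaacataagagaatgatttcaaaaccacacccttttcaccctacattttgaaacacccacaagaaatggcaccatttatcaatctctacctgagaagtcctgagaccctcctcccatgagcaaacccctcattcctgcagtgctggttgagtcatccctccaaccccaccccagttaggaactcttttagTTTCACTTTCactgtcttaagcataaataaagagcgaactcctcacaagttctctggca
Rsad2, minus strand, chr12:26456453-26456702: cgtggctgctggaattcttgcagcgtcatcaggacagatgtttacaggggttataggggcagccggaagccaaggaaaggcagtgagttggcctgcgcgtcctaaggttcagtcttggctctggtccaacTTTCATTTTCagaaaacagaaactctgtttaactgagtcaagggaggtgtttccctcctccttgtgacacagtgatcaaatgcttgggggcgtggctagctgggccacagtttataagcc
Oasl2, plus strand, chr5:114896684-114896933: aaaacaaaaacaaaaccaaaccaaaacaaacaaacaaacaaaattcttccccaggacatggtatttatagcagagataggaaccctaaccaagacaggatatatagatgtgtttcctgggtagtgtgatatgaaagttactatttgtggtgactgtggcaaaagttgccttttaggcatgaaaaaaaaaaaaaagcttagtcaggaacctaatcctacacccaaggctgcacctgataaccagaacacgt

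Most measured members gave a signal in the upper part of the array. All 32 had at least 1 probe set above the floor, a signal of 68.77 set at the 40th percentile of the array because no detection calls were given, against 71.3% of all 18193 genes. Of the 32, 15 had a probe set at or above the 90th percentile (a signal of 619.81), against 14.8% of all genes. Counted by probe set, 48 of 51 lay above the floor (63.5% of all probe sets named for 1 gene), 19 reached the 90th percentile or more (11.3%), and 1 reached the 99th (0.947%). A percentile here places a signal among those of all 45037 probe sets. The median percentile was 86.2 over the 51 member probe sets and 53.9 over all probe sets named for 1 gene. Every probe set passed the floor in 29 of the 32 genes, against 49.7% of all genes. No test of these differences was made.

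Genes with several probe sets have more chances to pass a line, so the members were also counted by number of probe sets. All 18 members with 1 probe set lay above the floor, against 57.7% of genes with 1 probe set, and 6 of the 18 reached the 90th percentile, against 8.7%. All 9 members with 2 probe sets passed the floor with at least 1 of them, against 79.5% of such genes, and 6 of the 9 reached the 90th percentile, against 16.4%. All 5 with 3 probe sets passed the floor, against 91.4% of genes with 3 or more, and 3 of the 5 reached the 90th percentile, against 26.1%. At the other extreme, 1 member, Rsad2, reached the 99th percentile (4651), against 1.39% of all genes. The other 31 members had their brightest probe set between percentiles 41.4 and 98.0.

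**Figure D1:**
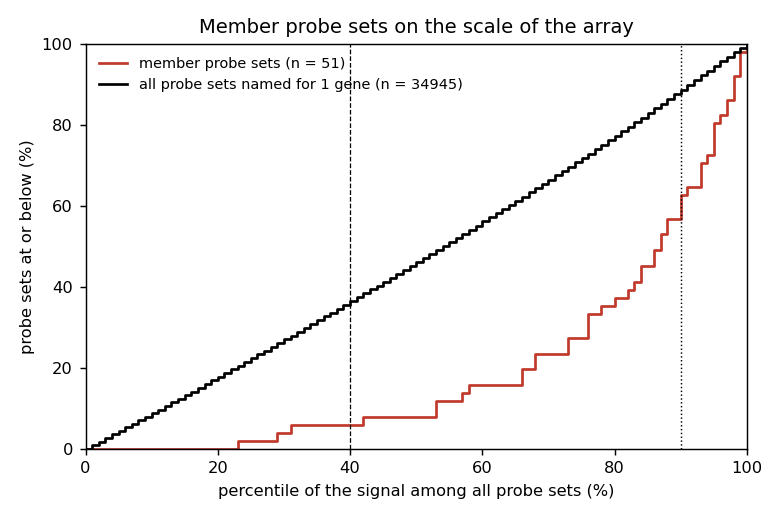
Cumulative share of probe sets (vertical axis, %) by the percentile of their signal among all probe sets of the ID8-induced array (horizontal axis, %), for the 51 member probe sets and for all 34945 probe sets named for 1 gene; dashed and dotted lines mark the 40th and 90th percentile. The member curve stays low until the upper range, with a median percentile of 86.2 against 53.9.

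Sensors of nucleic acid gave moderate signals, with all 10 probe sets of 5 genes above the floor (63.5% of all probe sets named for 1 gene) and 1 at or above the 90th percentile, which is close to the 11.3% of all such probe sets. Ifih1, which encodes MDA5, a sensor of long double-stranded RNA in the cytosol, read 427. Its relative Dhx58 (LGP2, a regulator of that pathway) read 497, 218 and 96.7 on 3 probe sets, so its dimmest lay near the middle of the array at percentile 52.7. Zbp1, a sensor of nucleic acids in the left-handed Z form that can start necroptosis, read 926 and 324. The DNA-binding HIN-200 family gene Ifi204 read 586 on its own probe set, just under the 90th percentile at 89.5. Eif2ak2, which encodes the RNA-dependent kinase PKR that stops translation, read 301, 219 and 109. Of this group, Zbp1 alone reached the 90th percentile, on 1 of its 2 probe sets.

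Enzymes that cut or edit RNA were above the floor on all 9 probe sets, against 63.5% of all probe sets named for 1 gene. Of the 7 genes, 4 reached the 90th percentile, against 14.8% of all genes. The 2′-5′-oligoadenylate synthetases make the messenger that switches on RNase L. Oas1a read 1287 (percentile 95.1), Oas2 611 (89.8) and Oas3 353 (83.7). Of the related genes, Oasl2, an active synthetase with ubiquitin-like domains, read 2258 (percentile 97.3). Oasl1, whose protein lacks synthetase activity and restrains translation of Irf7, read 353 (83.7). Isg20, an exonuclease that degrades single-stranded RNA, read 1808 (96.5). Adar, which converts adenosine to inosine in double-stranded RNA and so keeps self RNA from being sensed, read 632, 469 and 145. The Adar gene passes the 90th percentile only through its brightest probe set, which lies just above that line at 90.2. Some mouse Oas1 genes are close copies of each other, and the array values do not show how far their transcripts share probes.

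The 3 genes of the IFIT family, whose tetratricopeptide proteins bind foreign RNA and the translation machinery, lay between the floor and the 90th percentile. Ifit1, whose product binds RNA with an incomplete cap, read 401 (percentile 85.4). Ifit2 read 242 (77.5) and Ifit3 221 (75.7). Each has a single probe set here, so there was no second reading within the array, and Ifit3 has a near-identical copy, Ifit3b, that had no probe set of its own. In the ISG15 system, a ubiquitin-like tag and its enzymes, Isg15 itself could not be read. Usp18, the protease that removes the tag and also blocks signalling at IFNAR2, read 1163 (94.5).

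Genes that block viral replication or release spanned the widest range, from 50.9 to 6342. Rsad2 encodes viperin, a radical SAM enzyme that makes a chain-terminating nucleotide. Its probe sets read 6342, 4088 and 3451, between percentiles 98.4 and 99.4, so the 3 readings place it close together on the array. Cmpk2, a mitochondrial nucleotide kinase and the neighbour of Rsad2 on chromosome 12, read 190 and 50.9, the latter below the floor. Bst2, which encodes tetherin, a membrane protein that holds budding virus at the cell surface, read 445 (percentile 86.6). The dynamin-like GTPase genes gave 71.2 for Mx1, just above the floor at percentile 41.4, and 190 for Mx2 (72.5). RefSeq lists both as transcribed pseudogenes in the C57BL/6J assembly, a substrain of the C57BL/6 mice used here, and most laboratory mouse strains are known for a defective Mx1 gene.

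The GTPases that act on pathogen vacuoles are strongly inducible by interferon gamma. All 7 of their probe sets lay above the floor, against 63.5% of all probe sets named for 1 gene. Gbp2, a guanylate-binding protein, read 2226 and 1220.1, at percentiles 97.2 and 94.8. Irgm1, a regulator of the immunity-related GTPases, read 804 (92.1). The effector gene of that family Ifi47 (Irgd) read 1097 (94.2). Gbp3, by contrast, read 157 (67.8) and the effector gene Iigp1 (Irga6) read 153 and 106, so 3 of the 5 genes reached the 90th percentile (14.8% of all genes) and 2 stayed in the middle of the range. Both probe sets of Gbp2 lay on the upper side of that line and both of Iigp1 on the lower side.

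Cxcl9, a chemokine that draws activated T cells and is mainly induced by interferon gamma, lay near the floor. Its probe sets read 95.1 and 52.9, the second below the floor, at percentiles 52.0 and 30.3. The related chemokine gene Cxcl10, which type I interferons also induce, read 812 (percentile 92.2), and Cxcl11 read 115 and 66.6. Each probe set hybridises with its own efficiency, so these places on the array are not a ranking of transcript amounts.

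The remaining members are regulators and genes of less settled function. All 5 measured genes reached the 90th percentile with at least 1 probe set, against 14.8% of all genes. Each has 2 or 3 probe sets, and the share was 16.4% of genes with 2 and 26.1% of those with 3 or more. Of their 11 probe sets, 6 reached that line. Trim30a, a TRIM protein that restrains Toll-like receptor signalling, read 2917 and 1757, at percentiles 98.0 and 96.5. Parp14, a mono-ADP-ribosyltransferase, read 865 and 270.3. Ifi35, a leucine zipper protein that pairs with NMI, read 820.2, 619 and 412, and its middle probe set lay just under the 90th percentile. For Xaf1, which encodes an antagonist of the apoptosis inhibitor XIAP, the probe sets disagreed, at 1111 and 42.0. They also disagreed for Rtp4, a chaperone of membrane receptors, at 2902 and 146.

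**Figure D2:**
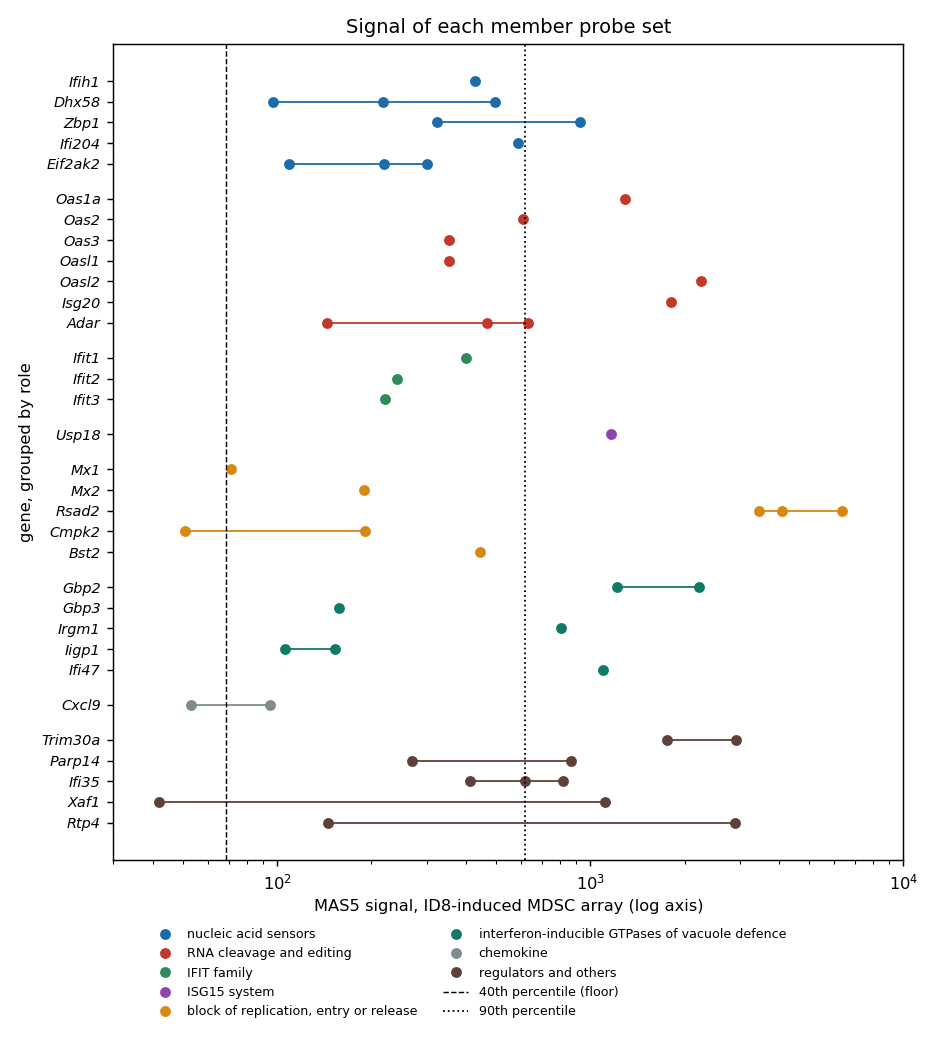
MAS5 signal (horizontal log axis) of each of the 51 member probe sets on the ID8-induced array, 1 row per gene and coloured by role, with a line joining probe sets of 1 gene; the dashed line is the floor (68.77) and the dotted line the 90th percentile (619.81). The 3 points below the floor belong to Cmpk2, Cxcl9 and Xaf1, and Rsad2 lies farthest to the right.

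Agreement between probe sets of a gene is the only check of a signal within 1 array. It reflects how well each probe set hybridises and which transcript end it covers, and it is not an error of the signal. In 14 members with several probe sets the brightest exceeded the dimmest by a median of 2.81-fold, from 1.44-fold for Iigp1 to 26.4-fold for Xaf1. Over all 9010 genes with several probe sets the median was 3.01-fold. The ratio of Xaf1 was higher than that of 95.6% of those genes and the ratio of Rtp4 (19.9-fold) higher than that of 93.6%, the widest disagreements among the members. In 3 of the 14 members, Xaf1, Cmpk2 and Cxcl9, the brightest probe set lay above the floor and the dimmest below it, against 43.7% of genes with several probe sets. Probe sets from the same transcript record in the annotation were found in 6 members. They differed 19.9-fold in Rtp4, 3.74-fold in Cmpk2 and 2.26-fold in Dhx58. The other 3 members differed less, by 1.44-fold in Iigp1, 1.38-fold in Eif2ak2 and 1.18-fold in Rsad2. The median of the 6 was 1.85-fold, and over all 3788 cases of probe sets of a gene from the same record it was 2.02-fold. Members with every probe set at or above the 90th percentile numbered 9, against 6.46% of all genes: Oas1a, Oasl2, Isg20, Usp18, Rsad2, Gbp2, Irgm1, Ifi47 and Trim30a.

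**Figure D3:**
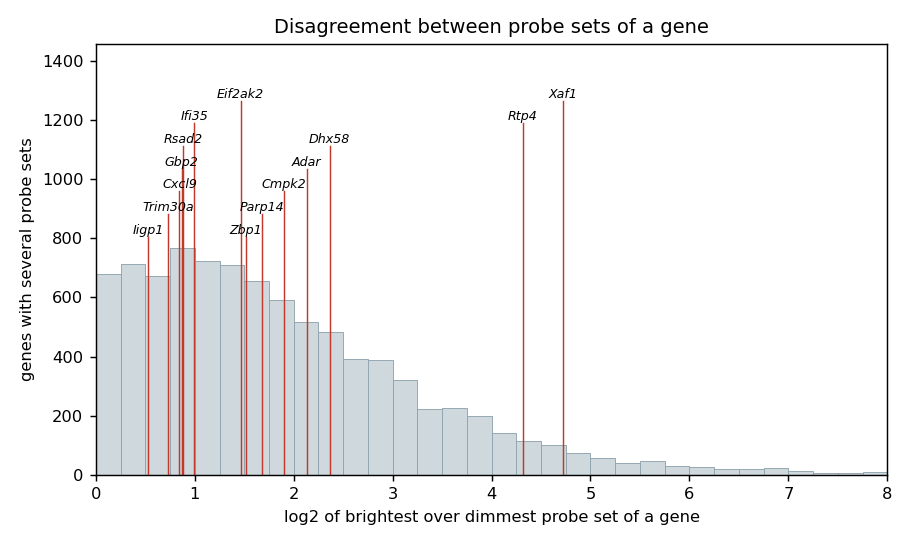
Distribution over 9010 genes with several probe sets of the log2 ratio of the brightest to the dimmest probe set (grey bars, number of genes; 23 genes above 8 are not shown), with red lines at the 14 members that have several. Xaf1 (26.4-fold) and Rtp4 (19.9-fold) stand in the right tail, and the other 12 members lie between 1.44-fold and 5.14-fold.

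The genes upstream of the members were read from lists of the interferon pathway. Over all genes, 71.3% lay above the floor and 14.8% reached the 90th percentile. The floor was passed by 79.5% of genes with 2 probe sets and 91.4% of those with 3 or more. Floor counts of such short lists therefore say little. Among the interferons themselves, 10 of 21 had a probe set of their own and 5 of those lay above the floor, none of them at the 90th percentile (0 of 10). Ifnb1 read 36.7 (percentile 18.5) and Ifng, just above the floor, read 73.4 (42.5). The alpha interferon genes with the strongest signals were Ifna9 at 102 and Ifna1 at 84.4, Ifnz (interferon zeta) read 125, and Ifna11 and Ifna4 lay below the floor at 14.1 and 35.2. The array holds a single time point, 4 days, and earlier times were not measured.

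On their brightest probe sets, all 6 receptor genes passed the floor (71.3% of all genes) and 5 reached percentile 90 (14.8%). Among all genes with 2 probe sets 16.4% reached percentile 90, and among those with 3 or more 26.1%. The dimmest probe sets of Ifnar2, Ifngr2 and Il10rb fell short of that line (619.81). Ifnar1 read 1361 and 1044 on 2 probe sets. Ifnar2 read 4912 on its brightest of 3 and 390.1 on its dimmest. Ifngr1 read 1411, and Ifngr2 read 1394 and 496. Il10rb, a chain shared with the interleukin 10 receptor, read 3222 and 456. The remaining gene, Ifnlr1, read 588 on 1 probe set, just under the 90th percentile at 89.5. Most blood cells are known to carry the IFNAR and IFNGR chains.

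Of the signal transducers, all 5 genes read here lay above the floor, against 71.3% of all genes, and 3 reached the 90th percentile, against 14.8%. Jak1 read 3094 on its brightest of 3 probe sets and 608 on its dimmest. Jak2 read 1643 and 1356, and Tyk2 read 568 and 88.2. Stat2 read 292 and 221, and Irf9, a DNA-binding part of the type I interferon complex, read 953. Among the interferon regulatory factors, 4 of 7 measured genes reached the 90th percentile, against 14.8% of all genes. Irf1 read 2563, Irf2, which opposes it, 1960, Irf7, the amplifier of alpha interferon production, 1727, and Irf3 753 on its brightest of 4 probe sets and 136 on its dimmest.

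Upstream sensors and adaptors were above the floor in 9 of 10 cases (71.3% of all genes) and at the 90th percentile in 3 (14.8%). Of the kinase genes that activate IRF3 and IRF7, Ikbke read 4776 and Tbk1 read 3191 and 1175 on 2 probe sets. The adaptor gene Myd88 read 782. Tlr3, a receptor of double-stranded RNA, lay below the floor on both probe sets, its brighter at 43.9. Brakes on the pathway were above the floor in 6 of 6 cases and at the 90th percentile in 4, beside the same shares of all genes. Ptpn6 (the phosphatase SHP-1) read 2789 and 2655. Socs3 read 2122 on its brightest of 3 probe sets and 1300 on its dimmest. Ptpn2 read 1276 on its brightest of 4 and 94.8 on its dimmest. Socs1, the main brake on interferon gamma signalling, read 120, almost exactly at the 60th percentile.

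A wider list of 50 other interferon-stimulated genes was read in the same way. Of 43 with a probe set of their own, 42 lay above the floor (71.3% of all genes) and 23 at or above the 90th percentile (14.8%). Their median percentile was 91.1 on the brightest probe set, against 89.7 for the members and 61.4 for all genes. The strongest were B2m (the light chain of MHC class I) at 13665 and the membrane proteins that stop virus entry, Ifitm2 at 9154 and Ifitm3 at 8478. Ifi44l was the only gene of this list below the floor on its brightest probe set, at 31.1. This list has genes of MHC class I presentation that the members lack, and the lists were not tested against each other.

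**Figure D4:**
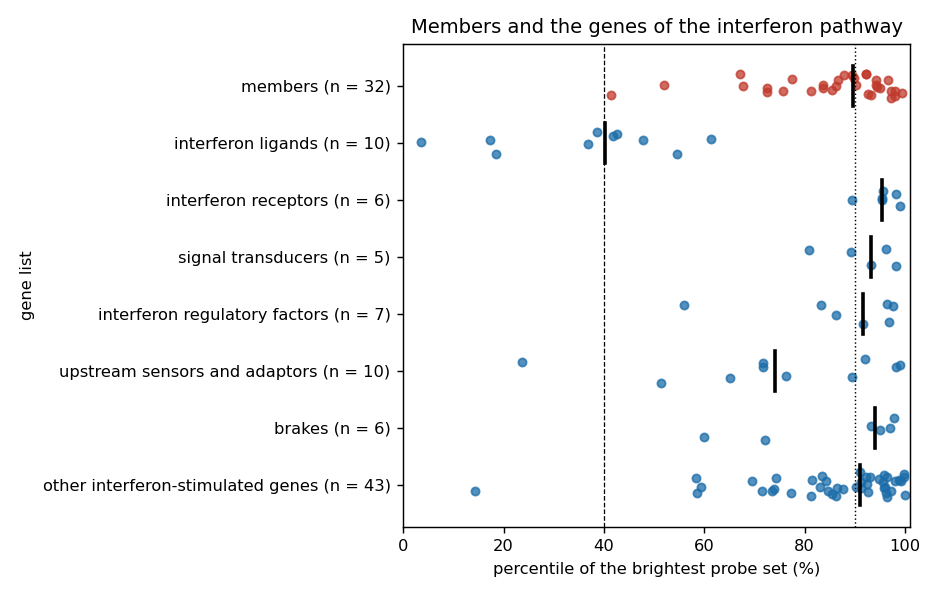
Percentile of the brightest probe set (horizontal axis, %) of each gene, 1 point per gene, for the 32 measured members and for 7 lists of the interferon pathway; black bars are list medians, and dashed and dotted lines mark the 40th and 90th percentile. The interferon genes sit around the floor, while receptors, transducers, interferon regulatory factors, brakes and the other interferon-stimulated genes have medians above the 90th percentile.

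The place of the element in the promoter was described next, as a feature the choice of members did not use directly. The 24 matches to the core fell in 14 members, and 9 of these had more than 1 match. With 20 of the 24 lying before the RefSeq start, the first base stood between 14 and 156 bases before it, and 4 lay after it, namely those of Ifih1 and Eif2ak2 and 1 of the 2 matches each of Ifi205 and Trim30a. By strand, 13 read in the direction of the gene and 11 in the opposite one. Of the 24 matches, 11 overlapped another match, as in Isg15, Oas1a, Bst2, Gbp3 and Irgm1, where the repeated units share letters. The extended form contains the core, so the counts of both are not separate. With a gap of 3 bases between the GAAA copies in place of 2, matches were found in 4 of 25 members (16%) and in 3.17% of all genes. The gamma-activated site TTCNNNGAA was found in 7 of the 25 (28%), namely Oas1a, Isg20, Adar, Bst2, Ifi35, Eif2ak2 and Ifit2, and in 9.55% of all genes. It has 1 overlap with a core match among 7. Neither spelling is particular to the members. The core was in 11 of 20 interferon genes with a window (55%), in 18 of 38 other interferon-stimulated genes (47.4%) and in 0 of 5 receptor genes. The gamma-activated site was in 10 of 20 interferon genes (50%), 3 of 7 interferon regulatory factors (42.9%), 2 of 5 receptor genes (40%) and 8 of 38 other interferon-stimulated genes (21.1%). The extended form was in 9 of 38 other interferon-stimulated genes (23.7%) and in 0 of 20 interferon genes.

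**Figure D5:**
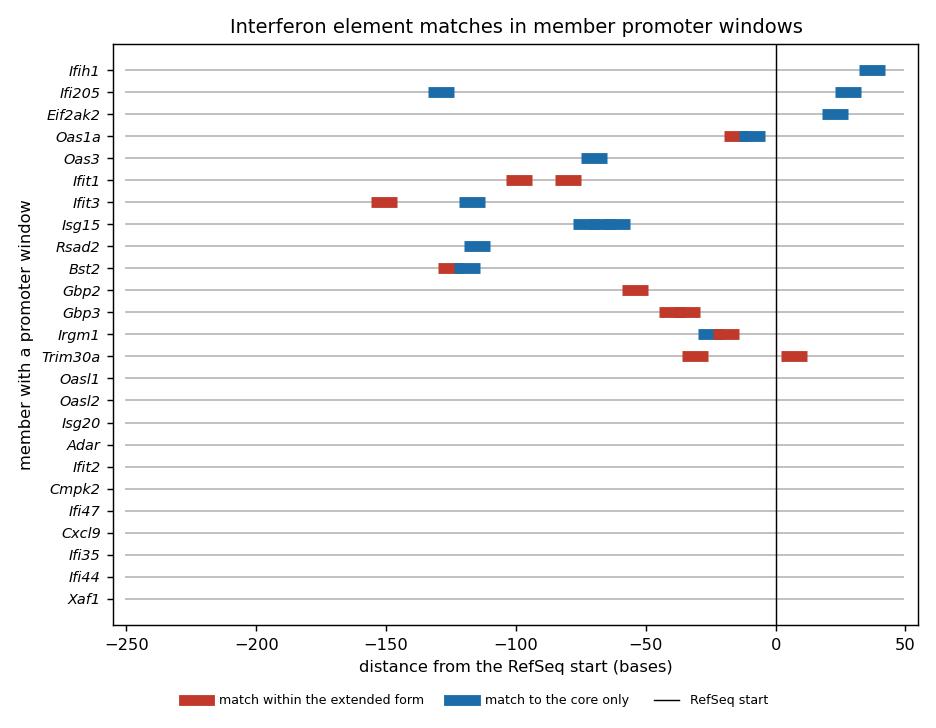
Matches to the interferon element core (GAAA, 2 bases, GAAA) in the promoter windows of the 25 members that have one (1 row per gene, all its RefSeq windows laid on the same line), by distance from the RefSeq start in bases; red matches lie within the extended form and blue ones are the core alone. The 14 members with a match are drawn first, and 20 of the 24 matches lie before the start.

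Signals of members with and without the core overlapped on this array. Of 12 measured members with the core in their window, 5 reached the 90th percentile, with brightest signals from 157 (Gbp3) to 6342 (Rsad2). Of 10 measured members with a window and no core, 6 reached it, with signals from 95.1 (Cxcl9) to 2258 (Oasl2). A window of 300 bases does not hold elements farther away, and the absence of these letters says nothing of the factor. Beyond the members, 512 named genes with the core had a median percentile of 63.6 and 18.9% of them reached the 90th, against 62.5 and 15.1% of 13918 genes without it. For the extended form, 4 of 8 measured members with it and 7 of 14 without it reached the 90th percentile, which is 50% of each. Outside the members, 11 of 36 genes with it (30.6%) reached that line, against 15.2% of 14394 without it, and the median percentiles were 65.4 and 62.5. Of those 36 genes, 7 are on the lists of the interferon pathway, and 5 of the 7 reached the 90th percentile. The other 29 reached it in 6 cases (20.7%), with a median percentile of 59.4. These are descriptions of 1 array, with no test.

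Among measured members, 4 pairs are next to each other in the RefSeq gene order: Rsad2 with Cmpk2 on chromosome 12, Ifit2 with Ifit3 on chromosome 19, and Oasl2 with Oasl1 and Oas2 with Oas3 on chromosome 5. On the array, the probe sets of Rsad2 lay between percentiles 98.4 and 99.4 and those of Cmpk2 at 72.5 and 28.9. The genes of the Ifit pair lay within a few percentile points of each other, at 77.5 and 75.7. Oasl2 and Oasl1 were at 97.3 and 83.7, and Oas2 and Oas3 at 89.8 and 83.7. These are places of different probe sets, each with its own efficiency, so they do not compare the transcript amounts of neighbours.

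The labelled CD11b+Gr1+ myeloid cells were checked against markers, with each gene counted by its brightest probe set as for the 71.3% of all genes above the floor and the 14.8% at or past percentile 90. All 9 measured markers of such cells and neutrophils were at or above the 90th percentile, with Itgam (CD11b) at 2375, S100a9 at 24857, Lcn2 at 21448 and S100a8 at 20545. Ly6g, Ly6c1 and Ly6c2, which encode the Gr1 antigens, had no probe set of their own. Of 5 monocyte markers, all passed the floor and 3 reached the 90th percentile. These were Lyz2 at 10887, Cd14 at 10143 and Csf1r at 4403 on its brightest probe set. Ccr2 at 286 and Fcgr1 at 187 on their brightest probe sets stayed below that percentile. Plasmacytoid dendritic cells, known as strong makers of type I interferon, had 7 of 7 markers above the floor and 0 at or past percentile 90, with Klk1 at 599.9, Spib at 430.1, Tcf4 at 269.8 and Siglech near the floor at 75.9. T and NK cells, the usual makers of interferon gamma, had 5 of 7 above it and 0 past percentile 90, with Prf1 at 314, Cd3e at 135, Gzma at 129, and Cd3g and Ncr1 below the floor at 62.3 and 65.2. Conventional dendritic cell markers passed in 3 of 4 cases (Flt3 165, Batf3 126, Zbtb46 117), with Xcr1 below the floor at 32.2. B cell markers passed in 3 of 3 (Cd79b 261, Ms4a1 141, Cd79a 136). Epithelial markers that ID8 cells could bring passed in 6 of 8, with Epcam at 159, Krt8 at 107 and Krt18 at 94.9, and Krt19 and Wt1 below the floor at 46.0 and 52.3. None of these 3 lists had a gene at or past percentile 90. The counts for T and NK cells, conventional dendritic cells and epithelium are near the share of all genes above the floor, so nothing about those cells is read from them. The plasmacytoid and B cell lists are short, and some of their genes have several probe sets. Of genes with 2 probe sets 79.5% passed the floor, and of those with 3 or more 91.4%. Nothing is read from these 2 lists either. On their dimmest probe sets, Epcam (58.3), Krt8 (46.6), Upk3b (42.7), Prf1 (62.5), Zbtb46 (21.1) and Ms4a1 (19.2) also lay below the floor. The same held for Klk1 (23.4), Tcf4 (54.0), Ccr9 (28.0) and the monocyte markers Ccr2 (9.84) and Fcgr1 (65.6). No listed marker was at 0. Bulk RNA does not tell fewer cells of a type from less RNA per cell, and the part of these cells in the member signals was not tested.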

How the data were processed

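Per the labels' protocols, total RNA (6 ug) taken up in TRIzol was turned into biotin-labelled cRNA for the array. The deposited values are MAS5 signal intensity, linear, 1 per probe set; MAS5 is named in the submitters' processing notes, and its version and scaling target are not given in the sources read. The signals of the ID8-induced array were used as deposited, each probe set by itself, without further scaling. The control column was examined only for its order. Symbols came from the platform annotation of GEO: 34945 probe sets had 1 symbol and were kept, while the 932 with several and the 9160 with none were left out. The floor was the 40th percentile of the array. In counts of genes, a gene is read at its brightest probe set unless stated otherwise.

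The rule for named genes took all members, the 3 strongest genes and up to 3 genes below the floor of each pathway and marker list, and a fixed set of pathway genes. Cxcl11 and Siglech were named after their values were seen. The members, lists and rules were chosen with earlier results of these data known. No statistical test was made, since each group has 1 array. Percentiles and the motif search were tested on simulated data. Alternatives were other floors, averaging of log2 signals, other choices of probe sets and other motif spellings. Computation used Python 3.11.15, numpy 2.4.6 and pandas 2.3.3, and matplotlib 3.10.9 drew the figures.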

Additional observations from a re-analysis of the deposited data

Results flagged for a closer look

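The bone marrow control column is a measured column that no value of the report uses. It was picked out because its signals reach 26083.92, in the first row of the table, while its values stand in 2 interleaved descending runs along the probe sets. No member has a usable control signal, and the order was not explored further.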

How the results depend on the processing

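The number of members above the floor was 32 of 32 and ranged from 29 of 32, when every probe set had to pass, to 32. It was 30 with the floor at the 60th percentile (Mx1 and Cxcl9 then lay below it) and 26 of 26 with suffix-free probe sets. Members at or above the 90th percentile numbered 15, and 9 when every probe set had to reach it. With log2 signals averaged per gene the count was 10 of 32, with suffix-free probe sets 10 of 26, and in both other settings 14 of 32. The median percentile moved between 84.3 and 89.7. Interferon genes above the floor fell from 5 to 1 with the floor at the 60th percentile, where the remaining 1 was Ifnz. Other pathway counts stayed within 1.5 times. The promoter element was found in 14 members, in 8 in its extended form, and in 4 with a gap of 3 bases, a spelling chosen after the data were seen. Averaging log2 signals moved 8 of 14 members with several probe sets by over 1.5 times, Xaf1 to 216 and Rtp4 to 650.1 among them. No paired analysis was possible because each group has 1 array and no test was made. For the same reason no array could be left out, and the precision is limited by the number of arrays.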
